A study of Mus musculus with 6 samples.

Results

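Integrins are the cell-surface receptors through which cells hold the extracellular matrix, and 10 of their chains are described here: the alpha chains Itga1, Itga2, Itga3, Itga5, Itga6, Itga10, Itga11 and Itgav and the beta chains Itgb1 and Itgb5. They were taken by gene name from a table of 28812 genes, and each name matched 1 row. RNA with a poly(A) tail was sequenced from mouse chondrocytes, the cells of cartilage, of wild-type genotype and labelled osteoarthritic (OA). All 6 libraries came from cells given interleukin-1 beta (IL-1β), a cytokine of joint inflammation: 3 with vehicle and 3 with mitochondria, whose source the series title gives as osteocytes. The labels give no age, sex, dose or time, and do not say whether the 3 libraries of a group came from separate animals or cultures, so p-values measure only the spread between these libraries. No chondrocytes without IL-1β were analysed here.

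An integrin is a pair of 1 alpha and 1 beta chain, and the pairing sets what is bound. Itgb1 pairs with every alpha chain in the set, whereas Itgb5 pairs with Itgav only. With Itgb1, the alpha chains Itga1, Itga2, Itga10 and Itga11 form the collagen receptors, Itga5 forms the main fibronectin receptor, and Itga3 and Itga6 form receptors of laminins. Itgav takes several beta chains and binds fibronectin, vitronectin and latent TGF-beta. In cartilage, Itga10 is known as a receptor of type II collagen on chondrocytes, Itga5 as the receptor through which chondrocytes sense fibronectin and its fragments, and Itga11 as a collagen receptor of fibroblastic cells.

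The libraries held 63547854 to 66293786 deposited counts, an estimate in which about 4 counts stand for 1 sequenced fragment. The labelled cell type was checked against 13 chondrocyte markers, all of which were tested: their summed level was 277 to 319 FPKM (a level per kilobase of transcript and unit of depth) with vehicle and 242 to 269 FPKM with mitochondria, Col2a1 and Prg4 being the highest. With vehicle they spanned 0.337 (Matn3) to 112 FPKM (Col2a1) on average, and Acan was at 1.87. The 9 fibroblast markers summed to 2200 to 2350 FPKM with vehicle and 1970 to 2160 with mitochondria. These levels alone do not settle the cell type. Leukocyte markers summed to 42.6 to 53.9 FPKM with vehicle and 40.6 to 50.5 with mitochondria. Most of this was Lyz2 (28.2 FPKM with vehicle and 20.2 with mitochondria) and Cd14 (13.0 and 16.7). The other leukocyte markers were at or under 3.79 FPKM on average in both groups. edgeR called 0 of the 10 tested (3 at an unadjusted p under 0.05, beside 31.5% of all genes), and DESeq2 called Cd14 higher and Ptprc lower. Itgb2, the beta chain of leukocytes, was at 0.909 ± 0.205 FPKM with vehicle and 0.952 ± 0.111 with mitochondria (SD, n = 3). Along the leading principal axis of log2(CPM + 1), which held 64.9% of the variance, mitochondria replicate 1 stood apart (49.48) from mitochondria replicates 2 and 3 (16.65 and 20.79), and the vehicle libraries lay at -18.6, -34.04 and -34.28. CPM are counts scaled to a common depth. Of all 17290 genes tested with edgeR's quasi-likelihood test, 1099 were higher and 1463 lower with mitochondria at an adjusted p under 0.05. With vehicle replicate 2 left out these counts were 130 and 316, with vehicle replicate 3 left out 132 and 310, and with mitochondria replicate 3 left out 398 and 734.

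Itga1 and Itga10, both collagen receptors, fell with mitochondria, to 0.393 and 0.572 of their vehicle level. The other 8 chains did not pass, among them the shared beta chain Itgb1 and the 2 most abundant alpha chains, Itga5 and Itgav. So 2 of 10 chains were called lower and 0 higher, beside 8.46% and 6.36% of all genes tested (14.8% in either direction). At an unadjusted p under 0.05, edgeR counted 5 of the 10 (Itga1, Itga2, Itga5, Itga10 and Itga11), beside 31.5% of all genes. In the same 5 chains the 2 groups were fully separate in depth-scaled counts, 3 with mitochondria lower and 2 with mitochondria higher, beside 20.9% and 19.8% of all genes (40.7% in either direction). DESeq2 on the same counts called 3 chains lower (Itga1, Itga10 and Itga11) and 2 higher (Itga2 and Itga5), beside 12.6% and 9.76% of all genes (22.3% in either direction). The median log2 fold change of the 10 chains was -0.05, and that of all genes 0.003. In bulk RNA, fewer cells that carry a chain and less of its RNA per cell cannot be told apart.

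**Figure D1:**
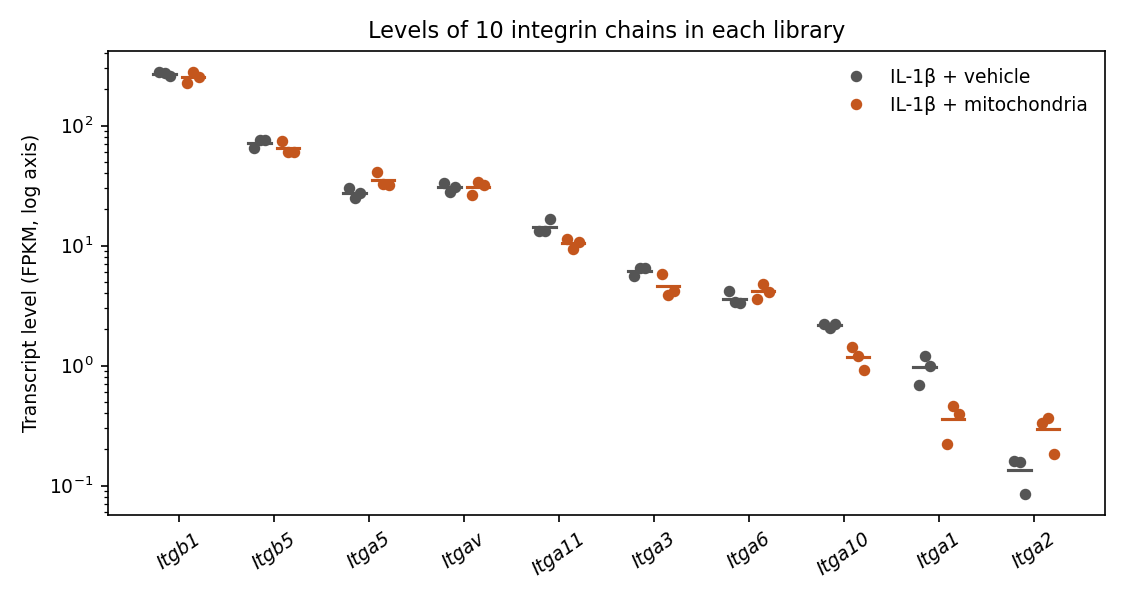
FPKM of each of the 10 chains in the 6 libraries, on a log axis and ordered by mean level; points are libraries, lines are group means. Itgb1 lies highest at 227 to 280 FPKM and Itga2 lowest at 0.0858 to 0.369 FPKM, and Itga10 and Itga1 show 2 separate groups of points.

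The chains spanned more than 3 orders of magnitude on the FPKM scale, which allows genes of different length to be compared. Over all 6 libraries the mean level was 262 FPKM for Itgb1, 68.5 for Itgb5, 31.3 for Itga5, 30.6 for Itgav, 12.5 for Itga11, 5.40 for Itga3, 3.88 for Itga6, 1.67 for Itga10, 0.661 for Itga1 and 0.215 for Itga2. Neighbours whose ranges overlapped were Itga5 and Itgav, Itga3 and Itga6, Itga10 and Itga1, and Itga1 and Itga2. All other neighbours in this order had ranges that did not overlap. Itgb1 exceeded the sum of the 8 alpha chains 2.52 to 3.41 times. Itga5 and Itgav together made up 66.2 to 70.9% of the summed alpha FPKM with vehicle and 74.7 to 76.7% with mitochondria. The 4 collagen-binding chains made up 18.3 to 22.6% with vehicle and 13.3 to 14.9% with mitochondria. The sum of all 8 alpha chains overlapped between the groups, at 85.7 ± 5.21 FPKM with vehicle and 86.7 ± 3.04 FPKM with mitochondria (SD, n = 3).

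Itga1, the alpha chain of the collagen receptor α1β1, changed most among the chains that passed. Its level was 0.692, 1.21 and 0.989 FPKM in vehicle libraries 1 to 3 and 0.223, 0.457 and 0.398 FPKM in mitochondria libraries 1 to 3. Every mitochondria library lay under every vehicle library, and vehicle library 1 was the lowest of its group. Its log2 fold change with mitochondria was -1.35 ± 0.28 (SE; 95% interval -1.99 to -0.70; edgeR adjusted p = 0.019). Leaving out vehicle replicate 2 (-1.16, edgeR adjusted p = 0.083), vehicle replicate 3 (-1.33, adjusted p = 0.077) or mitochondria replicate 3 (-1.42, adjusted p = 0.054) ended the call. The gene (ENSMUSG00000042284) lies on the minus strand of chromosome 13 at 114953096 to 115101964 (GRCm38). A predicted read-through gene on the same strand, Gm49395, shares 685 exon bases with it and was listed at 0.316 to 1.11 FPKM, so that reads of the pair may have been split between them. With the counts of Gm49395 added, Itga1 still passed, at -1.21 (edgeR adjusted p = 0.013).

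Itga10, the type II collagen receptor chain, fell as well. It stood at 2.24, 2.05 and 2.21 FPKM with vehicle and at 1.42, 1.20 and 0.917 FPKM with mitochondria. The vehicle libraries lay close together and the groups were clearly apart. On the log2 scale this was a change of -0.81 ± 0.18 (SE; 95% interval -1.23 to -0.39; edgeR adjusted p = 0.023). The call ended when any 1 of the 3 vehicle libraries was left out (-0.77, -0.86 and -0.80; edgeR adjusted p = 0.061, 0.081 and 0.099) or mitochondria replicate 3 was (-0.65, adjusted p = 0.063). The gene (ENSMUSG00000090210) lies on the plus strand of chromosome 3 at 96645584 to 96664519. It shares 1739 exon bases with the predicted gene Gm42957, listed at 0 to 0.445 FPKM, and with those counts added the change was -0.75 (edgeR adjusted p = 0.042).

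The 250 bases before the RefSeq start of these 2 chains are shown because both fell, with those of Itgb1, their shared partner, whose level did not pass. They are from GRCm38.p6, 5′ to 3′ on the strand of the gene, at chr13:115101965-115102214 (minus strand) for Itga1, chr3:96645334-96645583 (plus strand) for Itga10 and chr8:128685404-128685653 (plus strand) for Itgb1. Capitals mark a GC box, here the letters GGGCGG on either strand.
Itga1: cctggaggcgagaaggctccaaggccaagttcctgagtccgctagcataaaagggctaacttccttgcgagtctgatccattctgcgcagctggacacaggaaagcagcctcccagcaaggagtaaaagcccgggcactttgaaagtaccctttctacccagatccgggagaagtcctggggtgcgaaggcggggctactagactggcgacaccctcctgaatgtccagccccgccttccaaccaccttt
Itga10: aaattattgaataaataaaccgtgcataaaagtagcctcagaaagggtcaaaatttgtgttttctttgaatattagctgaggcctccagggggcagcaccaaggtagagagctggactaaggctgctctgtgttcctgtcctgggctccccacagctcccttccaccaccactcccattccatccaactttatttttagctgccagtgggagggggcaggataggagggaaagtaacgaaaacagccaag
Itgb1: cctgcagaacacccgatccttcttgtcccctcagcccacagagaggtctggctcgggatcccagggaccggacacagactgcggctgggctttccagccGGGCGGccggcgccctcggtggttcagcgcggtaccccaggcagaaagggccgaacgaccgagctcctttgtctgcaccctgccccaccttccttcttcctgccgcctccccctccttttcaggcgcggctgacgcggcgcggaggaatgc
These windows differ in base content: 57.6% of the bases were G or C for Itga1, 48.0% for Itga10 and 68.0% for Itgb1. Besides the GC box, 4 motifs were searched on both strands: the AP-1 motif (TGANTCA), the TATA box, read as the letters TATAAA, the CCAAT box by its own letters, and the CArG box. None of the 5 had a match in the windows of Itga1 and Itga10, and Itgb1 had 1 GC box, 151 to 146 bases before the start. Across 32851 promoter windows of the same length, 6.75% held the AP-1 motif, 12.4% the TATA box, 33.8% the CCAAT box, 32.7% the GC box and 1.47% the CArG box. A window was found for 9 of the 10 chains (2 for Itga3). Itga3, Itga5, Itgb1 and Itgb5 had a GC box, Itga3 also had a CCAAT box, and no window had any of the other 3 motifs.

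Itga11, the most abundant of the collagen-binding alpha chains, did not pass. Its level was 13.3, 13.3 and 16.5 FPKM with vehicle and 11.4, 9.42 and 10.8 FPKM with mitochondria. All mitochondria libraries were lower than all vehicle libraries, and as a ratio the step was smaller than for Itga10 (to 0.768 against 0.572 of the vehicle level in the edgeR estimate). Its estimate on the log2 scale was -0.38 ± 0.12 (SE; 95% interval -0.66 to -0.11; edgeR adjusted p = 0.068). It passed without mitochondria replicate 1 (-0.44, edgeR adjusted p = 0.036). The gene (ENSMUSG00000032243) lies on chromosome 9 at 62677826 to 62783982, plus strand.

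Itga2, the collagen receptor chain known from platelets and epithelium, was the only collagen-binding chain with a higher estimate. It was barely detected, at 0.160, 0.158 and 0.0858 FPKM with vehicle and 0.331, 0.369 and 0.185 FPKM with mitochondria. All mitochondria values were above all vehicle values, but they rested on 44 to 185 deposited counts, or about 11 to 46 fragments, per library. A log2 fold change of 1.19 ± 0.39 (SE; 95% interval 0.31 to 2.07; edgeR adjusted p = 0.073) was estimated, which did not pass in any of the 6 fits with 1 library left out. Itga2 (ENSMUSG00000015533; 114833081 to 114932100, minus strand) and Itga1 are neighbours on chromosome 13, with 20995 bases between them, and had estimates of opposite sign. Itga1 exceeded Itga2 4.32, 7.67 and 11.5 times in FPKM with vehicle, and 0.673, 1.24 and 2.15 times with mitochondria. The 2 chains were thus at like levels with mitochondria and not with vehicle, in FPKM that leave out the read-through gene Gm49395. Gm49395 was listed at 1.11, 0.512 and 0.316 FPKM with vehicle and 0.836, 0.349 and 0.761 FPKM with mitochondria. The ratio therefore depends on how reads shared with Itga1 were assigned. Other genes known from cells that carry Itga2 were also low: platelet markers summed to 5.39 to 9.84 FPKM with vehicle and 5.22 to 8.47 with mitochondria. Of these, edgeR and DESeq2 each called 0 of 4 tested, and 1 had an unadjusted p under 0.05 in edgeR, beside 31.5% of all genes. Epithelial markers summed to 4.09 to 5.19 FPKM with vehicle and 1.84 to 2.18 FPKM with mitochondria, and their estimates had both signs. Krt14 and Krt8 fell, 2 of 5 tested beside 8.46% of all genes (log2 -4.04 and -1.02, edgeR adjusted p = 0.025 and 0.044). Krt14 was near the floor, at 0.905, 1.90 and 0.665 FPKM with vehicle and 0.152, 0.0316 and 0 with mitochondria. Krt18 had a negative estimate (-0.99, adjusted p = 0.14, edgeR). The other 2 tested had positive estimates, as Itga2 did. Itgb4 (0.74, 95% interval 0.18 to 1.3, edgeR adjusted p = 0.078) was higher in every mitochondria library than in any vehicle library. Cdh1 (1.09, adjusted p = 0.43, edgeR) overlapped between the groups and rested on about 1 to 6 fragments per library. The part of epithelial cells in the higher estimate of Itga2 was not tested. edgeR called none of these 5 markers when mitochondria replicate 2, vehicle replicate 3 or vehicle replicate 2 was left out, in turn.

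**Figure D2:**
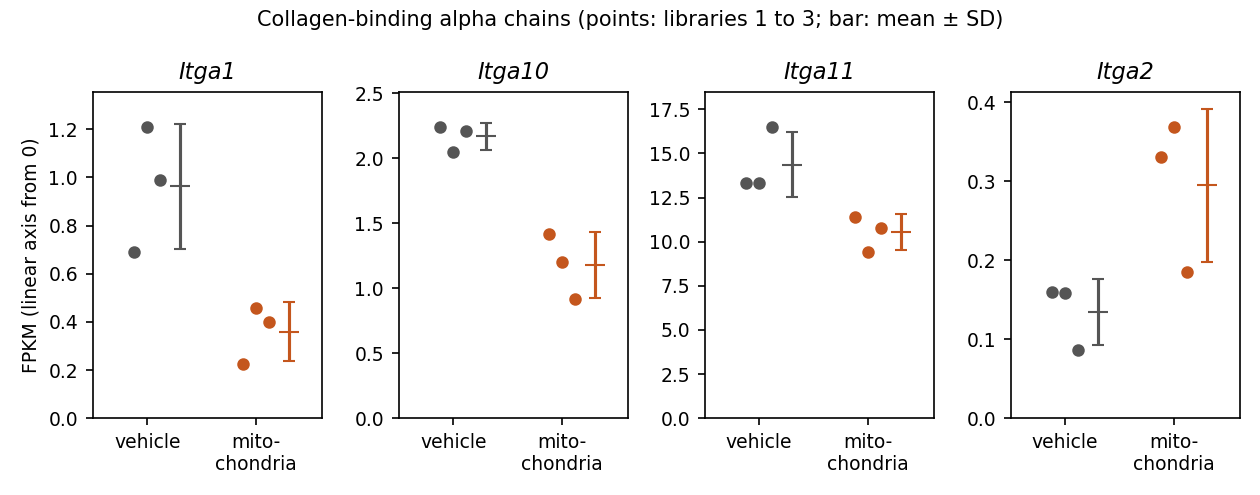
FPKM of the 4 collagen-binding alpha chains in each library, on linear axes that start at 0 and differ between panels; the bar beside the points is the mean ± SD of 3 libraries. Itga1, Itga10 and Itga11 lie lower in all 3 mitochondria libraries and Itga2 higher.

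As a group, the collagen-binding chains summed to 16.4, 16.7 and 19.8 FPKM with vehicle and to 13.4, 11.4 and 12.3 FPKM with mitochondria. The groups did not overlap. Itga11 made up 79.6 to 83.4% of that sum with vehicle and 82.3 to 87.8% with mitochondria, Itga10 11.2 to 13.7% and 7.48 to 10.6%, and Itga1 4.22 to 7.22% and 1.66 to 4.0%. In the mitochondria libraries Itga10 was also lower relative to Itga11, at 0.112 ± 0.0234 of its FPKM against 0.152 ± 0.0175 with vehicle (SD, n = 3). These sums and shares describe chosen genes and were given no test.

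Itga5, the fibronectin receptor chain, had a higher estimate that did not pass. It stood at 30.2, 25.1 and 27.6 FPKM with vehicle and at 40.7, 32.4 and 31.8 FPKM with mitochondria. The groups did not overlap, and mitochondria library 1 was the highest of all. Its estimate was a log2 fold change of 0.41 ± 0.12 (SE; 95% interval 0.12 to 0.69; edgeR adjusted p = 0.061). With the replicate number as a block in the model, Itga5 passed (0.40, edgeR adjusted p = 0.038). Relative to Itga11, Itga5 was at 1.67 to 2.27 times its FPKM with vehicle and 2.95 to 3.56 times with mitochondria. Itga5 (ENSMUSG00000000555) lies on chromosome 15 at 103344286 to 103366763, minus strand. Its ligand fibronectin, Fn1, was among the most abundant transcripts at 879 ± 114 FPKM with vehicle and 1070 ± 106 FPKM with mitochondria (SD, n = 3). Fn1 did not pass either (log2 0.35 ± 0.11 (SE), edgeR adjusted p = 0.072). Like Itga5, Fn1 was called higher with the replicate block and with DESeq2.

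Itgav and Itgb5, which together form αvβ5, a receptor of vitronectin, overlapped between the groups. Itgav was at 33.4, 28.1 and 30.5 FPKM with vehicle and 26.5, 33.7 and 31.7 FPKM with mitochondria. Its log2 fold change of 0.07 had a 95% interval of -0.19 to 0.33 (edgeR adjusted p = 0.74). Itgb5 was at 64.8, 75.3 and 76.3 FPKM with vehicle and 73.8, 60.7 and 60.1 FPKM with mitochondria. Mitochondria library 1 was on the side of vehicle for Itgb5. Its log2 fold change of -0.08 had an interval of -0.33 to 0.16 (edgeR adjusted p = 0.66). Both intervals lay within 0.33 of 0 on the log2 scale. Itgav (ENSMUSG00000027087) lies on chromosome 2 at 83724397 to 83806916 and Itgb5 (ENSMUSG00000022817) on chromosome 16 at 33829665 to 33949338, both on the plus strand. Vitronectin itself, Vtn, was listed at 0 in every library.

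Itgb1, the beta chain shared by the collagen, fibronectin and laminin receptors, was at 280, 272 and 258 FPKM with vehicle and 227, 280 and 255 FPKM with mitochondria. The groups overlapped, and mitochondria library 1 was the lowest of all 6. The log2 fold change was -0.02 ± 0.09 (SE; 95% interval -0.24 to 0.20; edgeR adjusted p = 0.92). Itgb1 (ENSMUSG00000025809) lies on chromosome 8 at 128685654 to 128733200, plus strand.

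The laminin receptor chains Itga3 and Itga6 had estimates of opposite sign and neither passed. Itga3 was at 5.53, 6.55 and 6.47 FPKM with vehicle and 5.80, 3.86 and 4.19 FPKM with mitochondria. Mitochondria library 1 lay among the vehicle libraries and the other 2 lay under them. The log2 fold change was -0.35 ± 0.16 (SE; 95% interval -0.72 to 0.02; edgeR adjusted p = 0.17), and without mitochondria replicate 1 Itga3 passed (-0.55, adjusted p = 0.011). Itga6 was at 4.17, 3.36 and 3.3 FPKM with vehicle and 3.56, 4.81 and 4.11 FPKM with mitochondria, and the groups overlapped. Its log2 fold change was 0.27 ± 0.15 (SE; 95% interval -0.07 to 0.61; edgeR adjusted p = 0.25). Itga3 (ENSMUSG00000001507) lies on chromosome 11 at 95044474 to 95076797, minus strand, and Itga6 (ENSMUSG00000027111) on chromosome 2 at 71745616 to 71858416, plus strand. Itgb4, the partner of Itga6 in epithelial hemidesmosomes, was low at 0.253 FPKM with vehicle and 0.403 FPKM with mitochondria.

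**Figure D3:**
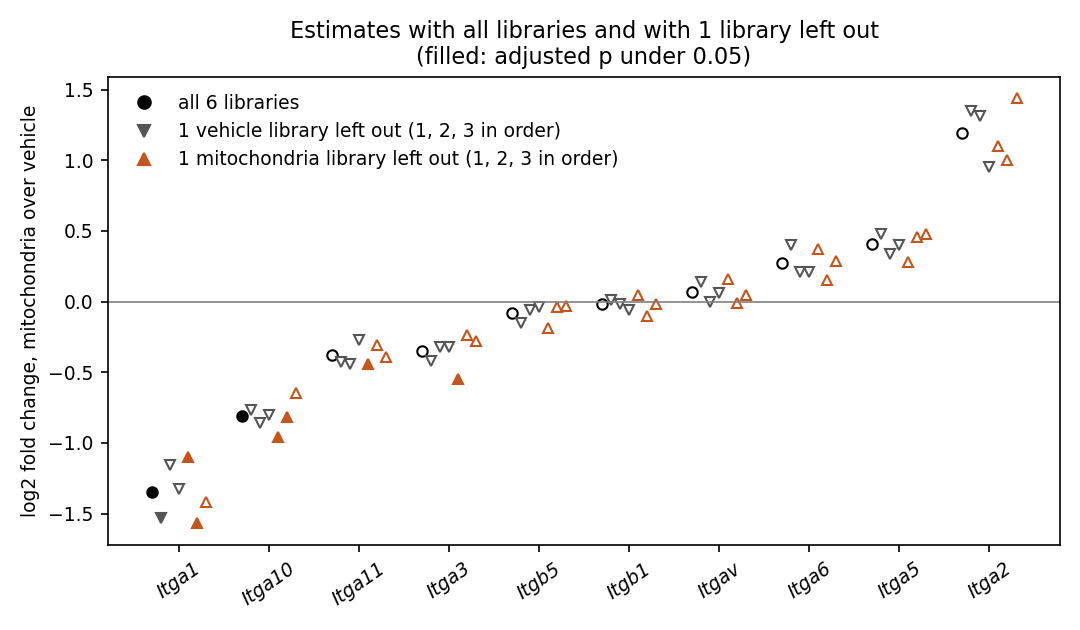
Log2 fold change of each chain with all 6 libraries (circles) and with each library left out in turn (triangles); filled symbols passed at an adjusted p under 0.05. Itga1 passed in 3 and Itga10 in 2 of the 6 fits with a library left out, Itga3 and Itga11 passed in the fit without mitochondria replicate 1, and the other 6 chains passed in none.

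Over all genes, the change between the groups moved with base content. In the fifth of genes with the least G and C in their transcripts (28.3 to 45.2%) the median log2 fold change was -0.42, and in the fifth with the most (55.9 to 84.2%) it was 0.18. Itga1 (43.2%) and Itgb1 (44.2%) belong to the first, Itga2 and Itga6 to the next, Itgav to the middle, Itga5, Itga10, Itga11 and Itgb5 to the fourth, and Itga3 to the last. With an offset for GC content in each library, 4 of 10 chains were called lower and 3 higher, beside 8.67% and 11.6% of all genes (20.3% in either direction). Itga1 and Itga10 passed there too, at -0.95 and -0.90 (edgeR adjusted p = 0.0097 and 0.0066). Itga11 and Itga3 passed as lower (-0.51 and -0.51; adjusted p = 0.0093 and 0.018), and Itga2 and Itga6 as higher (1.39 and 0.39; adjusted p = 0.035 and 0.044). Itgb1 turned from -0.02 to 0.34 (adjusted p = 0.020), whereas Itga5 (0.27), Itgav (0.05) and Itgb5 (-0.20) did not pass. Over all genes the split of calls was 2010 higher and 1497 lower with these offsets (57.3% higher) against 42.9% higher without them.

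**Figure D4:**
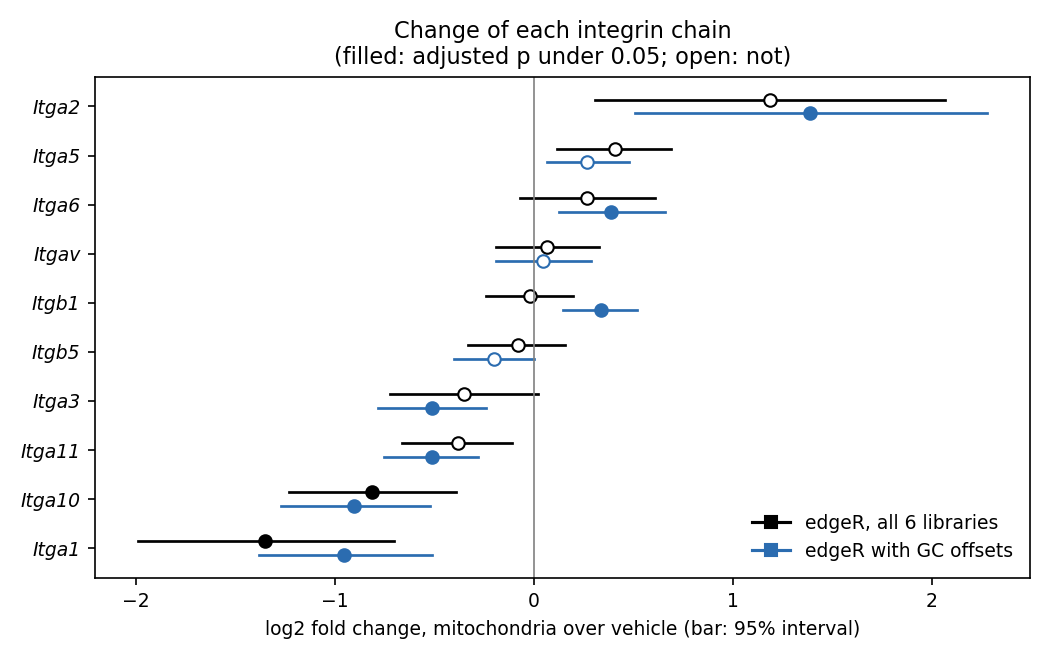
Log2 fold change of each chain with its 95% interval, from edgeR on all 6 libraries (black) and with GC offsets (blue); filled points passed at an adjusted p under 0.05. Only Itga1 and Itga10 are filled in black, and Itgb1 is the chain whose estimate moves from near 0 to 0.34 with the offsets.

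Some markers of contractile and fibroblastic cells, in which Itga1 and Itga11 are known to be expressed, fell with mitochondria. Of all genes tested, 8.46% fell and 6.36% rose. Of 7 muscle markers tested, 2 fell and none rose: the smooth muscle actin Acta2 went from 147 ± 41.8 to 36.6 ± 3.88 FPKM (SD, n = 3; edgeR adjusted p = 0.0031), and the calponin Cnn1 from 2.26 ± 0.436 to 0.645 ± 0.175 FPKM (adjusted p = 0.0066). The 7 estimates had both signs, 4 below 0 and 3 above. Those above were Actn2 (1.18, edgeR adjusted p = 0.13), Itga7 (0.38, adjusted p = 0.15) and Des (0.30, adjusted p = 0.59). Actn2 was higher in every mitochondria library than in any vehicle library, on about 5 to 22 fragments per library. Itga7 was called higher without vehicle replicate 1. Below 0, besides Acta2 and Cnn1, were Myh11 (-1.54, edgeR adjusted p = 0.088) and Myh1 (-0.74, adjusted p = 0.46). Myh11 and Myh1 rested on about 6 to 39 and 6 to 38 fragments per library, and DESeq2 called Myh11 lower. The muscle markers summed to 114 to 186 FPKM with vehicle and 44.5 to 52.8 FPKM with mitochondria. Most of that sum was Acta2, and the next in level, Itga7, was at 8.28 and 10.3 FPKM. Of 9 fibroblast markers, 5 fell and none rose (Pdgfra, Pdgfrb, Thy1, Col1a2 and Lum), with sums of 2200 to 2350 and 1970 to 2160 FPKM. Leaving out vehicle replicate 2 or vehicle replicate 3 left 1 of the 9 lower (Pdgfrb in both fits), and leaving out mitochondria replicate 3 left 3. With GC offsets 3 fell and Dcn rose, and the list's median log2 fold change went from -0.46 to -0.15. Chondrocyte markers split, with 2 of 13 higher (Sox9, Acan) and 2 lower (Sox6, Hapln1). None of the 13 was called without vehicle replicate 2 or vehicle replicate 3, and none was called higher without mitochondria replicate 2 or mitochondria replicate 3. The part of these cells or states in the lower Itga1, Itga10 and Itga11 was not tested. Osteocyte markers summed to 79.3 to 119 FPKM with vehicle and 120 to 132 FPKM with mitochondria, so that the groups did not overlap. Most of that sum was podoplanin (Pdpn), at 92.4 ± 22.6 FPKM with vehicle and 127 ± 6.41 FPKM with mitochondria (SD, n = 3; log2 0.52 ± 0.16 (SE), edgeR adjusted p = 0.064). edgeR called 0 of the 4 tested (1 at an unadjusted p under 0.05, beside 31.5% of all genes). Pdpn was called higher with DESeq2, with GC offsets, with the replicate block, with counts divided by 4 and without vehicle replicate 1. Dmp1 and Sost, which define osteocytes, did not exceed 0.02 and 0.0252 FPKM in any library.

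The other integrin chains moved in both directions. Of 16, 12 were tested, 1 rose and 2 fell, beside 6.36% and 8.46% of all genes. Their median log2 fold change was 0.15. Itgb3, which pairs with Itgav in a receptor of vitronectin and osteopontin, rose from 0.910 ± 0.323 to 1.95 ± 0.229 FPKM (SD, n = 3; log2 1.17 ± 0.25 (SE), edgeR adjusted p = 0.020). Itgb8, which pairs with Itgav and activates latent TGF-beta, fell from 1.27 ± 0.113 to 0.327 ± 0.136 FPKM (log2 -1.88 ± 0.28 (SE), adjusted p = 0.0068). Both stood below Itgb5, at 60.1 to 76.3 FPKM, in every library. Itga9, a receptor chain for tenascin and osteopontin that pairs with Itgb1, fell from 1.69 ± 0.301 to 0.879 ± 0.112 FPKM (adjusted p = 0.017, edgeR). Itga7, a laminin receptor chain that also takes Itgb1, was at 8.28 and 10.3 FPKM and did not pass (adjusted p = 0.15). Itga8 and Itga4, further fibronectin-binding partners of Itgb1, were at or under 0.208 FPKM on average in both groups. Leaving out any 1 of vehicle replicate 2, vehicle replicate 3 and mitochondria replicate 3 left 1 of the 12 called, lower.

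Inside the cell, integrin tails are linked to actin by the adhesion complex, of which 6 members rose and 4 fell among 43 tested (median log2 fold change -0.02). Of all genes tested, 6.36% rose and 8.46% fell (11.6% and 8.67% with GC offsets). The core linkers stayed on the side that did not pass: talin (Tln1, log2 -0.03), kindlin (Fermt2, -0.08), Ilk (0.17) and focal adhesion kinase (Ptk2, 0.15). The adaptor paxillin (Pxn) rose by 0.63 ± 0.11 (SE; edgeR adjusted p = 0.011) and Csk, the kinase that restrains Src, by 0.51 ± 0.12 (adjusted p = 0.025). The parvins, which tie Ilk to actin, went opposite ways: Parvb rose (1.42 ± 0.27, adjusted p = 0.014) from 0.328 to 0.845 FPKM and Parva, the more abundant, fell (-0.58 ± 0.12, adjusted p = 0.019) from 23.3 to 14.8 FPKM. Rsu1 (-0.53), Tgfb1i1 (-0.39) and vinculin (Vcl, -0.31) fell, and the tetraspanin Tspan9 rose (0.87). Leaving out vehicle replicate 2 or vehicle replicate 3 left 1 of the 43 called, and leaving out mitochondria replicate 3 left 3. With GC offsets 7 rose and 10 fell, and vinculin was not among the 10. Neither vinculin nor Tgfb1i1 was called with the replicate block or without mitochondria replicate 2.

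**Figure D5:**
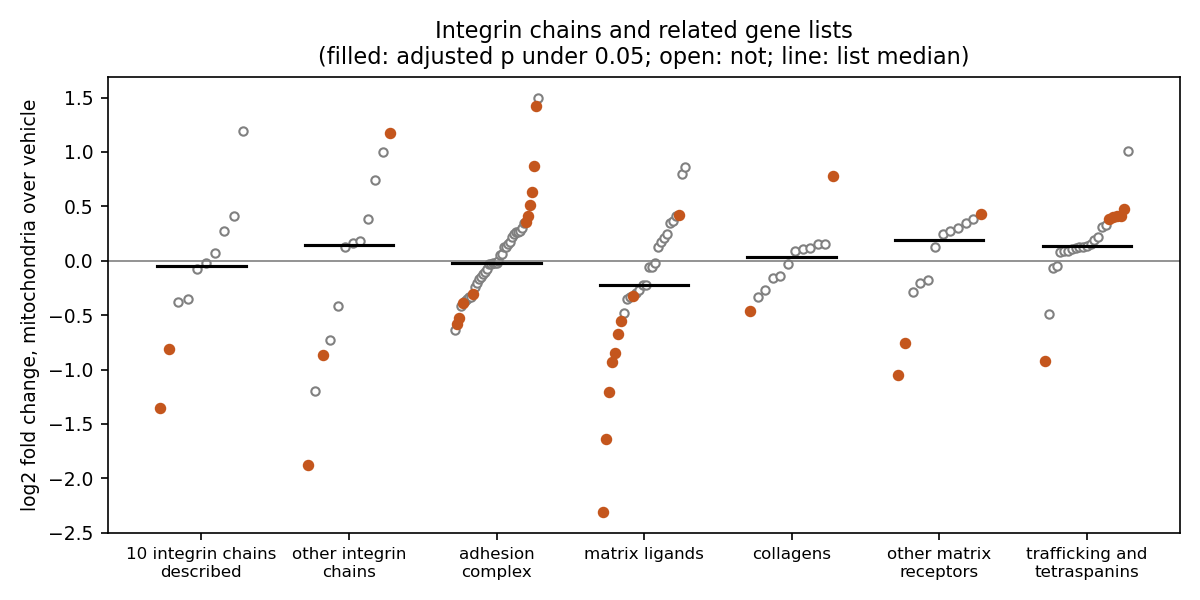
Log2 fold changes of the 10 chains and of 6 related gene lists, each point a gene; filled points passed at an adjusted p under 0.05, open points did not, and the line is the list median. The 10 chains have 2 filled points, both under 0, and the matrix ligands have 8 filled points under 0 and 1 above.

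On the matrix side, 1 of 28 ligand genes rose and 8 fell (median -0.22). For this list and those that follow, the shares of all genes tested were 6.36% higher and 8.46% lower (11.6% and 8.67% with GC offsets). Those with the most negative estimates were Ibsp (-2.31), the nephronectin relative Egfl6 (-1.64), the laminin chain Lama2 (-1.21) and periostin (Postn, -0.93). Ibsp, Egfl6 and Lama2 were low, at 0.434, 0.939 and 0.132 FPKM with vehicle and 0.0817, 0.283 and 0.0538 with mitochondria. Ibsp rested on about 2 to 18 fragments per library. Postn was at 65.5 and 32.9 FPKM. The metalloproteinase Adam15, whose disintegrin domain can bind integrins, rose (0.42). Of 12 collagens, Col6a3 rose (0.78 ± 0.16 (SE), edgeR adjusted p = 0.019) and Col1a2 fell (-0.46 ± 0.09, adjusted p = 0.015). With GC offsets Col6a3 was called and Col1a2 was not. Col2a1, the ligand of Itga10, did not pass (-0.16, edgeR adjusted p = 0.37), nor did Col1a1 (-0.03, adjusted p = 0.86). Col2a1 passed with GC offsets, at -0.38, and without mitochondria replicate 1, at -0.27. Among 12 collagen and matrix receptors that are not integrins, the collagen receptor kinase Ddr2 fell from 40.5 ± 2.51 to 22.8 ± 5.33 FPKM (SD, n = 3; log2 -0.76 ± 0.16 (SE), adjusted p = 0.019, edgeR). The related kinase Ddr1 did not pass (0.35, adjusted p = 0.053). The proteoglycan receptor Sdc2 fell (-1.05) and Sdc3 rose (0.43). Of 23 trafficking genes and tetraspanins, 5 rose (Slc3a2, Cd81, Cd82, Hax1 and Dnm2, 0.38 to 0.48) and 1 fell, the integrin endocytosis adaptor Dab2 (-0.92). With vehicle replicate 2 or vehicle replicate 3 left out, 1 ligand, 0 collagens, 1 receptor and 1 trafficking gene passed in each fit, and with mitochondria replicate 3 left out they numbered 1, 1, 2 and 2. With GC offsets 10 trafficking genes rose and 1 fell, whereas limma on log2(FPKM + 1) called 2 trafficking genes higher and 1 lower. GC offsets also gave 1 receptor higher, which was not Sdc3, and 4 lower, Ddr2 and Sdc2 among them. For the ligands they gave 1 higher, which was not Adam15, and 10 lower, with Ibsp, Egfl6, Lama2 and Postn among them.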

How the data were processed

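Poly(A) RNA from 3 vehicle and 3 mitochondria libraries of IL-1β-treated mouse chondrocytes was read from a gene table deposited by the authors. It holds FPKM, scaled by the authors to transcript length and depth per the file headers, and, per the file headers, expected counts per gene, which the authors deposited without normalisation and which are all whole numbers. HISAT2 2.0, StringTie 1.3.0, Bowtie 0.12.2 and build mm8 are named without roles per the submitters' processing notes; strand and annotation are not given in the sources used here. Start and end matched GENCODE M21 (GRCm38) for 90.2% of 28732 shared identifiers, so positions are GRCm38. The value 4 was 2.31 to 2.84 times as frequent as 3 and 5 among low counts, so 4 counts were taken as about 1 fragment.

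Counts were fitted with edgeR 4.0.16 in R 4.3.3 (TMM scaling with factors of 0.9726 to 1.033, filterByExpr with a minimum count of 10, quasi-likelihood test with group as the only term, two-sided, Benjamini-Hochberg adjustment over 17290 genes, threshold 0.05); all 10 chains passed the filter. The design named limma on FPKM should there be no counts. FPKM levels carry no TMM factor, whereas log2 fold changes do. The SE is the absolute log2 fold change over the root of the F statistic, and the 95% interval uses that SE. The scripts were tested on simulated data. Alternatives were DESeq2 1.42.0, limma 3.58.1 on log2(FPKM + 1) and log2(FPKM + 0.1) at a mean FPKM of at least 0.5 or unfiltered, RLE scaling, no count filter, counts divided by 4, GC offsets (loess, span 0.3; GC known for 17270 genes), a replicate block and leaving out each library. Adding read-through counts was chosen after seeing the data. The labels do not say that replicate numbers pair libraries, and none of the same-number correlations (0.0837, 0.0272 and 0.0237) exceeded 0.1. Correlations of the other pairs were -0.0684 to 0.0567.

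Members and gene lists were chosen with earlier results of these data known. Genes outside the 10 were named where a list had 8 or fewer calls, otherwise the 4 largest in each direction, plus 18 fixed partners and ligands.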

Additional observations from a re-analysis of the deposited data

How the results depend on the processing

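Every estimate of Itga1, Itga10 and Itga11 was negative and every estimate of Itga2 and Itga5 positive in all 16 alternatives (14 for Itga2, which was under the FPKM filter in 2), but calls depended on settings. The call of Itga1 was lost with no count filter (-1.35, edgeR adjusted p = 0.064) and in limma with no filter (-0.53), as was that of Itga10 (-0.81 and -0.55), where members called lower numbered 0 and genes called higher and lower over all genes were 357 and 507, and 161 and 301. More genes are tested without a filter. With DESeq2, 2 chains were called higher (Itga2, 1.19; Itga5, 0.41), Itga11 was called lower (-0.38) and 1687 genes were higher over all. With counts divided by 4, 1 chain was called higher (Itga5, 0.40). Itga11 was called in limma on log2(FPKM + 1) (-0.41) and log2(FPKM + 0.1) (-0.44). With GC offsets, 3 chains were called higher and 4 lower, and 2010 genes were higher over all: Itga2 1.39, Itga3 -0.51, Itga6 0.39, Itga11 -0.51 and Itgb1 0.34, which reversed from -0.02; the cause was not tested. With the replicate block, Itga5 was called (0.40), making 1 higher chain, and no other chain changed its call; the pairing is only a shared number.

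With 1 library left out, genes called numbered 130 to 1086 higher and 310 to 1694 lower, and chains called lower 0 to 4, with 0 higher. The log2 fold change spanned -1.57 to -1.10 for Itga1, -0.96 to -0.65 for Itga10, -0.44 to -0.27 for Itga11, 0.95 to 1.44 for Itga2, -0.55 to -0.24 for Itga3, 0.28 to 0.48 for Itga5, 0.15 to 0.40 for Itga6, -0.01 to 0.16 for Itgav, -0.10 to 0.05 for Itgb1 and -0.19 to -0.03 for Itgb5. Depth limits Itga2 most, at about 11 to 46 fragments per library.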
